A study of Gallus gallus with 24 samples.

Results

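Integrins, laminins and their closest matrix and adhesion partners were examined as a set of 44 genes out of the 12422 with a symbol in the expression table of this study. Members were taken by a pattern on the gene symbol that uses no expression value, and the pattern was chosen with earlier results of these data known. The set held 13 integrin alpha subunits, 7 integrin beta subunits, 12 laminin chains, 6 matrix glycoproteins (FN1, TNC, TNR, VTN, NID1 and NID2) and 6 cytoplasmic adaptors and kinases (ILK, PARVA, PARVB, PTK2, PXN and TLN2). No filter on low values was applied here to the deposited values, and all 44 were tested. The authors report filtering with edgeR, and genes removed before deposit could not be members. In the GRCg7b gene table of NCBI they lay on 18 chromosomes, with 7 members each on chromosomes 2 and 7. The chromosome 7 members were ITGA4, ITGA6, ITGAV, ITGB2, ITGB5, ITGB6 and FN1.

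RNA was profiled from the sinoatrial node (SAN), the site of the heart's pacemaker cells, and from atrial myocardium of chick embryos at HH stage 30, which is embryonic day 6. In each tissue, 4 pools of 5 dissected preparations were explanted for 14 hours with 0.25 ug/ml CN03, a cell-permeant activator of the small GTPase RhoA, 4 pools were explanted for the same time with vehicle (1 ul of water), and 4 pools were taken fresh (t0), giving 6 groups and 24 libraries. The medium of the CN03 and vehicle groups was DMEM/F12 with amphotericin B and penicillin-streptomycin (1% each) and 15% FBS, and the t0 groups were never cultured. No genetic change was made in any group, and a pool mixes the cell types of the dissected tissue and several embryos.

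Integrins are cell-surface receptors built from an alpha and a beta subunit that bind extracellular matrix outside the cell and, through talin, kindlin, ILK, parvin, FAK and paxillin, the actin cytoskeleton inside it. Laminins are trimers of an alpha, a beta and a gamma chain that form the first layer of basement membranes and are linked to the collagen IV layer by nidogens. In the heart these molecules tie muscle, endothelial and mesenchymal cells to their matrix, and RhoA-driven contractility acts on the same adhesions. The roles given for single genes are known mostly from mammals.

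Values are the normalized log2 expression values that the authors deposited, and the number of reads behind them is unknown, so the precision rests on the spread among the 4 pools of a group. P-values therefore describe the spread between pools. How gene length entered these values is not given in the sources used here, and levels are compared only within a gene. Libraries of the same group correlated across genes with r between 0.977 and 0.992. At t0 the tissue labels matched their markers. The SAN genes SHOX2, HCN4, ISL1 and TBX3 were called higher in SAN, with log2 fold changes (log2FC) of 6.23, 3.47, 2.74 and 2.37 against atria, while TBX18 missed the fold limit at 0.86. All 5 atrial markers (NPPA, BMP10, GJA5, NKX2-5 and MYL10) were called lower in SAN than in atria. A gene was called when limma gave a Benjamini-Hochberg adjusted p under 0.05, over all 12422 genes, together with a log2FC beyond 1 in either direction. In bulk tissue, fewer cells of a type and less RNA per cell cannot be told apart.

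CN03 moved about as many members up as down in SAN and moved more of them up than down in atria. In SAN, 12 of 44 members were called higher with CN03 than with vehicle (27.3%, against 10.2% of all genes) and 11 were called lower (25.0%, against 17.1% of all genes). In atria, 16 were called higher (36.4%, against 13.8% of all genes) and 7 lower (15.9%, against 15.6% of all genes). The median log2FC over the 44 members was -0.20 in SAN and 0.45 in atria, where the medians over all genes were -0.06 and -0.01. Each called member had CN03 libraries that did not overlap the vehicle libraries of its tissue. The share of all genes with such separation was not computed, and some members that were not called, such as ILK, PTK2 and TLN2, also had it. The rule that named members for library values in comparisons of groups required separate groups. Their separation, here and below, is therefore no result about them. Integrin subunits, which are 20 of the 44 members, made up 9 of the increases in SAN and 10 in atria. Of the 13 alpha subunits, 6 were called higher and 3 lower in each tissue (46.2% and 23.1%). Of the 7 beta subunits, 3 were called higher in SAN (42.9%) and 4 in atria (57.1%), and 1 was called lower in each (14.3%). Over all genes the shares higher and lower were 10.2% and 17.1% in SAN and 13.8% and 15.6% in atria. Of the 12 laminin chains, 1 was called higher and 5 lower in SAN (8.33% and 41.7%, against 10.2% and 17.1% of all genes). In atria, 3 laminin chains were called higher and 2 lower (25% and 16.7%, against 13.8% and 15.6% of all genes).

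**Figure D1:**
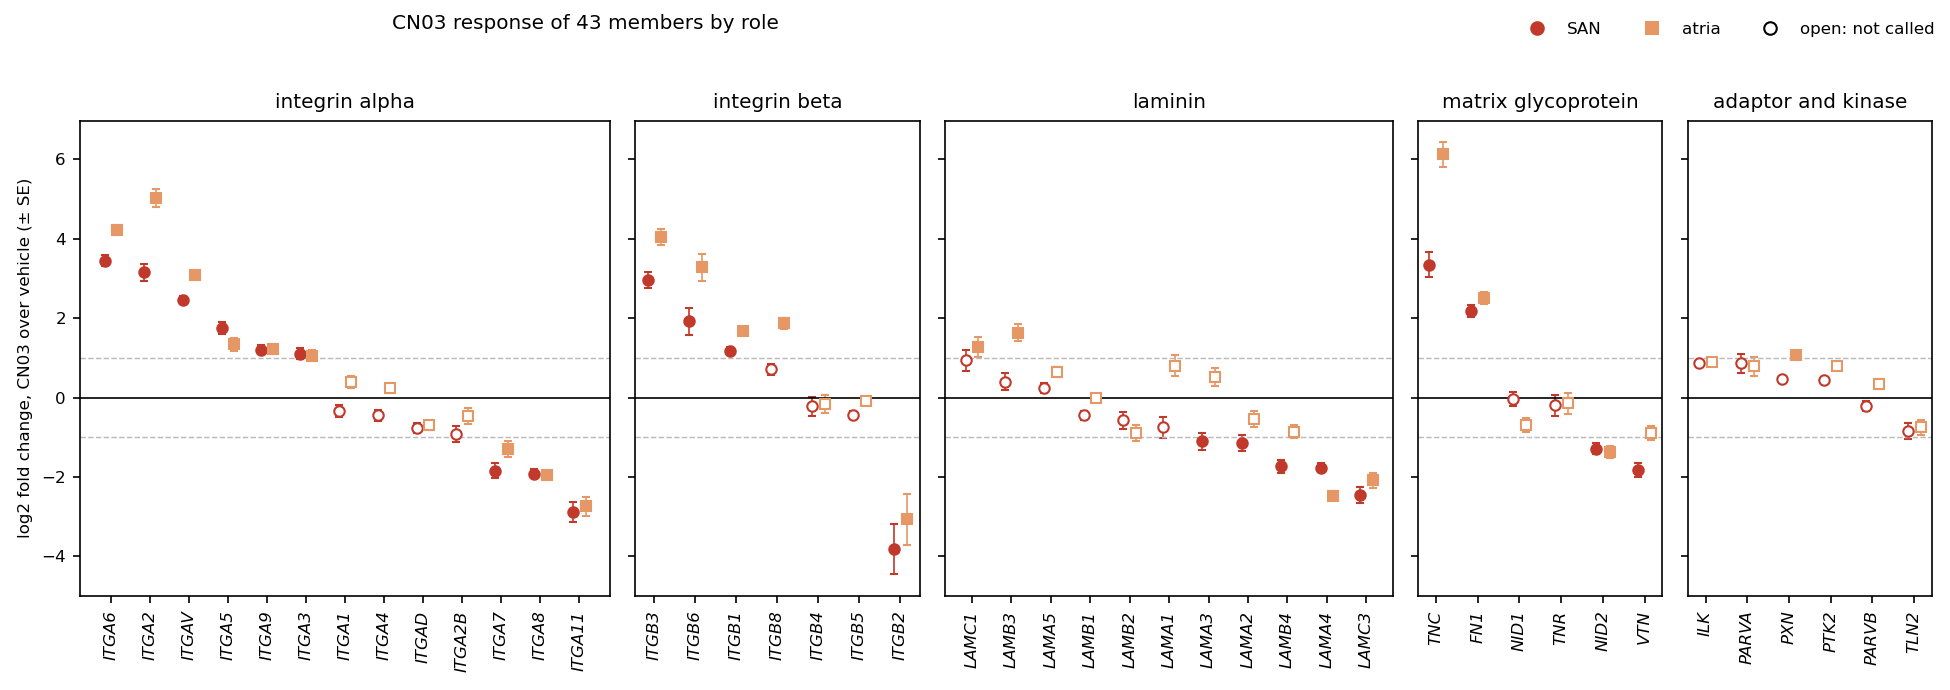
Log2 fold change of CN03 over vehicle for 43 members, grouped by role, in SAN (red circles) and atria (orange squares), with the standard error from limma. Filled symbols are called members, and dashed lines mark a log2FC of 1 in either direction. TNC had the highest value in atria, 6.13, and ITGB2 the lowest in both tissues.

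Among the integrin alpha subunits, ITGA6, ITGA2, ITGAV, ITGA5, ITGA9 and ITGA3 were called higher with CN03 in both tissues. ITGA6, which pairs with ITGB1 or ITGB4 as a laminin receptor, had log2 expression of 8.62, 8.65, 8.50 and 8.36 in CN03-treated SAN, against 5.18, 4.99, 5.04 and 5.14 with vehicle. In atria it stood at 9.03, 8.97, 8.95 and 8.45 with CN03, against 4.68, 4.81, 4.54 and 4.47 with vehicle. The CN03 libraries were thus more than 3 log2 units above every vehicle library in both tissues. Its log2FC was 3.45 ± 0.133 in SAN (SE, n = 4 pools per group, limma adjusted p = 8.02e-16) and 4.22 ± 0.133 in atria (limma adjusted p = 1.29e-17). Fresh tissue also lay below the CN03 libraries, with 5.78, 6.17, 5.47 and 5.51 in SAN and 5.24, 5.51, 5.38 and 5.17 in atria.

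ITGA2, the alpha subunit of a collagen and laminin receptor, was near the low end of its range without CN03. Its log2 expression was 3.65, 3.53, 4.01 and 3.78 in SAN with CN03, against 1.09, 0.24, 0.65 and 0.36 with vehicle. The atrial libraries had 5.66, 5.41, 5.69 and 5.03 with CN03, against 0.53, 0.21, 0.58 and 0.37 with vehicle. The vehicle libraries of both tissues covered a similar range, and those with CN03 were higher in atria than in SAN without overlap. The log2FC was 3.16 ± 0.219 in SAN (limma adjusted p = 1.13e-11) and 5.03 ± 0.219 in atria (limma adjusted p = 2.34e-15), with n = 4 pools per group.

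ITGAV, the shared alpha subunit of the vitronectin- and fibronectin-binding receptors that also release latent TGF-beta, rose with a log2FC of 2.46 in SAN and 3.08 in atria. ITGA5, whose pair with ITGB1 is the main fibronectin receptor, rose by 1.76 in SAN and 1.34 in atria on the log2 scale. ITGA9, which binds tenascin-C and osteopontin, rose by 1.21 and 1.23, and ITGA3, a laminin receptor of epithelia, by 1.11 and 1.06. The ITGA3 call in atria was lost without Atria CN03 replicate 1, where the log2FC was 0.998, just under the limit. After quantile normalization between libraries the ITGA3 call was lost in SAN (0.91) and in atria (0.80).

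The alpha subunits called lower with CN03 were ITGA11, ITGA8 and ITGA7, again in both tissues. ITGA11, a receptor for fibrillar collagens on mesenchymal cells, had log2 expression of 0.83, 0.60, 1.33 and 1.53 in SAN with CN03, against 3.95, 4.16, 4.05 and 3.66 with vehicle. The atrial libraries had 1.67, 1.62, 1.75 and 2.13 with CN03 and 3.86, 4.99, 4.98 and 4.30 with vehicle. All 8 CN03 libraries were below all 8 vehicle libraries. The log2FC was -2.88 ± 0.24 in SAN (limma adjusted p = 2.39e-10) and -2.74 ± 0.24 in atria (limma adjusted p = 4.39e-10), with n = 4 pools per group.

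ITGA8, a partner of ITGB1 that binds nephronectin and fibronectin, stood at 5.05, 5.08, 4.96 and 4.79 in SAN with CN03, against 6.77, 6.77, 7.10 and 6.89 with vehicle. In atria it had 4.06, 4.29, 4.68 and 4.02 with CN03 and 6.12, 6.48, 6.09 and 6.20 with vehicle. The groups did not overlap in either tissue, and the log2FC was -1.91 ± 0.115 in SAN (limma adjusted p = 1.03e-12) and -1.96 ± 0.115 in atria (limma adjusted p = 3.71e-13). ITGA7, the main laminin receptor of striated muscle, fell by 1.84 on the log2 scale in SAN and by 1.30 in atria. The remaining alpha subunits were not called in either tissue. ITGA1, a collagen receptor, had a log2FC of -0.33 in SAN and 0.38 in atria, and ITGA4, which binds VCAM1 and fibronectin, had -0.45 and 0.24. ITGAD, of a leukocyte receptor, had -0.76 and -0.70, and ITGA2B, the thrombocyte fibrinogen receptor subunit, had -0.92 and -0.46.

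Marker sums of several cell types moved with these falls and with those of LAMA4 and LAMC3, described with the laminins. The summed level of the 5 epicardial and mesothelial markers in the table (6 listed) was 8.35 to 8.73 with CN03 against 9.58 to 9.95 with vehicle in SAN, and 7.36 to 7.68 against 9.16 to 9.67 in atria (log2), without overlap in either tissue. For 7 fibroblast and mesenchymal markers, all in the table, the sum was 11.41 to 11.77 with CN03 against 12.05 to 12.17 with vehicle in SAN, and 11.15 to 11.59 against 11.43 to 11.92 in atria, where the ranges overlapped. That sum covers genes that moved apart. DCN, LUM and PDGFRA had log2FC of -2.16, -2.52 and -1.16 in SAN and -1.58, -2.72 and -1.08 in atria, all called, whereas TWIST1 was called higher, at 1.99 and 4.31, and COL1A1, COL3A1 and POSTN were not called. Summed cardiomyocyte markers (6 of 6 in the table) were 12.08 to 12.38 with CN03 against 12.62 to 13.26 with vehicle in SAN, and 13.06 to 13.63 against 14.02 to 14.23 in atria. Summed SAN markers were 7.80 to 8.03 with CN03 against 9.27 to 9.65 with vehicle in SAN, and 6.52 to 6.82 against 6.94 to 7.30 in atria. In atria these genes moved apart. TBX18, which the epicardial sum also holds, averaged 4.87 with CN03 against 6.67 with vehicle, and HCN4 0.63 against 2.45. TBX3 (5.85 against 4.36) and ISL1 (3.21 against 1.89) were higher with CN03 without overlap. Summed atrial markers ran the other way, at 12.70 to 13.59 with CN03 against 8.24 to 8.92 with vehicle in SAN and 14.24 to 14.84 against 10.45 to 10.74 in atria. NPPA, whose means with CN03 were 13.07 in SAN and 14.54 in atria, BMP10 and MYL10 rose in both tissues. GJA5 was called lower in both. The mean of NKX2-5 was also lower with CN03, at 4.35 against 5.67 in SAN and 7.84 against 8.78 in atria. The part of these shifts in the changes of ITGA11, ITGA8, ITGA7, LAMA4 and LAMC3 was not tested.

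**Figure D2:**
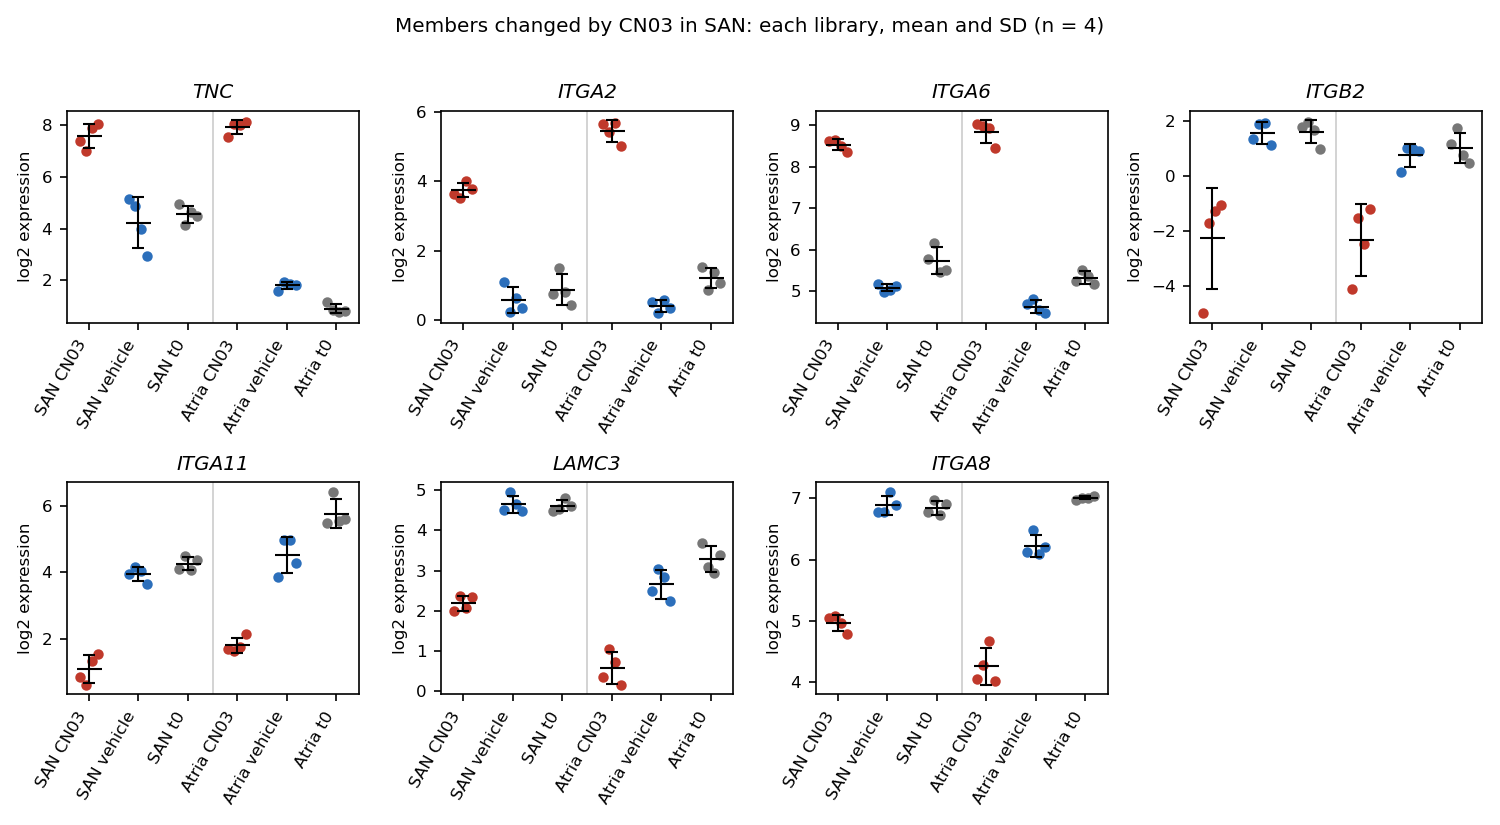
Log2 expression of 3 members called higher (TNC, ITGA2 and ITGA6) and 4 called lower (ITGB2, ITGA11, LAMC3 and ITGA8) with CN03 in SAN. Each point is 1 library of a group (red CN03, blue vehicle, grey t0), with the mean and SD (n = 4). In each of the 7 panels the CN03 libraries lie clear of the vehicle libraries of the same tissue. In SAN this gap was required by the rule that named the 7 members. In atria the same rule required it for TNC, ITGA2, ITGA6, ITGB2, ITGA11 and LAMC3.

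Among the beta subunits, ITGB3, ITGB6 and ITGB1 were called higher in both tissues and ITGB8 in atria. ITGB3, the partner of ITGAV in the vitronectin receptor, averaged 7.50 ± 0.0912 in CN03-treated SAN and 4.53 ± 0.242 with vehicle (log2 expression, SD, n = 4 each). In atria it averaged 7.64 ± 0.389 with CN03 and 3.59 ± 0.139 with vehicle. Its log2FC was 2.97 in SAN and 4.06 in atria. ITGB6, an epithelial partner of ITGAV that activates TGF-beta, rose by 1.92 and 3.28 on the log2 scale in SAN and atria, with a mean level low enough that a filter at a mean log2 value of 2 leaves it out. ITGB1, the common partner of most alpha subunits, rose by 1.19 and 1.67, with standard deviations between pools of at most 0.112 in the groups compared. ITGB8, a further partner of ITGAV, rose by 1.87 in atria and had a log2FC of 0.72 in SAN, under the fold limit. The summed level of 7 endothelial and endocardial markers, all in the table, was 8.74 to 9.07 with CN03 and 8.98 to 9.13 with vehicle in SAN, and 9.02 to 9.38 with CN03 and 8.33 to 8.73 with vehicle in atria. The part of this atrial difference in the integrin increases was not tested. ITGB4 and ITGB5 were not called in either tissue.

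ITGB2, the beta subunit of the leukocyte integrins, was the member with the lowest log2FC in both tissues. It stood at -4.97, -1.71, -1.29 and -1.06 in SAN with CN03, against 1.33, 1.88, 1.90 and 1.13 with vehicle. In atria it had -4.08, -1.51, -2.48 and -1.20 with CN03, against 0.13, 1.00, 0.99 and 0.89 with vehicle. The groups were separate, but the CN03 libraries spread widely close to the bottom of the table, whose lowest value is -5.87. The log2FC was -3.82 ± 0.633 in SAN (limma adjusted p = 1.06e-05) and -3.07 ± 0.633 in atria (limma adjusted p = 0.000146). When 1 was added to each linear value before taking logs, it was -1.62 and -1.11, still called. Without SAN CN03 replicate 1, the lowest library, the SAN value was -2.91.

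Macrophage and leukocyte markers moved with ITGB2. All 8 listed markers were in the table, and their summed level ranged from 3.93 to 4.48 in SAN with CN03 against 6.92 to 7.15 with vehicle, and from 4.04 to 4.18 in atria with CN03 against 5.48 to 6.32 with vehicle. C1QA, C1QB, C1QC, MARCO, SPI1 and CSF1R were called lower with CN03 in both tissues and CD74 in SAN, while PTPRC, the pan-leukocyte marker CD45, had log2FC values of -0.07 and 0.25. C1QA and C1QC reached the table minimum in CN03 libraries of both tissues. The part of these cells in the ITGB2 result was not tested. Summed thrombocyte markers were 4.77 to 5.03 with CN03 against 5.23 to 5.90 with vehicle in SAN. In atria they overlapped, at 4.06 to 4.53 against 4.43 to 4.57. NFE2 among them had a higher mean with CN03 in SAN (3.23 against 2.51). The part of this shift in the ITGA2B values was not tested.

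Within the laminin family, LAMB3 and LAMC1 were called higher in atria, LAMC3 and LAMA4 fell in both tissues, and LAMA2, LAMA3 and LAMB4 fell in SAN. LAMA3 and LAMB3 are the alpha and beta chains of the laminin that anchors epithelia. LAMB3 rose by 1.64 on the log2 scale in atria, and its log2FC in SAN was 0.40. LAMA3 fell by 1.10 in SAN, and its log2FC in atria was 0.52. The LAMA3 call in SAN was lost without SAN CN03 replicate 2 (-0.97) or SAN vehicle replicate 1 (-0.98), after quantile normalization (-0.65) and with a pseudocount of 1 (-0.91).

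LAMC3, a gamma chain of low abundance in most basement membranes, stood at 1.99, 2.36, 2.07 and 2.33 in SAN with CN03, against 4.52, 4.95, 4.64 and 4.47 with vehicle. In atria it had 0.36, 1.04, 0.74 and 0.16 with CN03 and 2.49, 3.05, 2.85 and 2.24 with vehicle. The tissues kept their order under both treatments, with SAN above atria in each library. The log2FC was -2.46 ± 0.193 in SAN (limma adjusted p = 9.2e-11) and -2.08 ± 0.193 in atria (limma adjusted p = 1.2e-09).

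LAMA4, the alpha chain of vascular and mesenchymal basement membranes, had 4.61, 5.02, 4.88 and 4.87 in CN03-treated SAN, against 6.50, 6.53, 6.73 and 6.68 with vehicle. In atria it stood at 3.99, 3.82, 3.70 and 4.15 with CN03, against 6.34, 6.53, 6.41 and 6.25 with vehicle. Its log2FC was -1.77 ± 0.11 in SAN (limma adjusted p = 1.73e-12) and -2.47 ± 0.11 in atria (limma adjusted p = 3.02e-15). LAMA2, the alpha chain of muscle basement membrane, fell by 1.15 on the log2 scale in SAN and had a log2FC of -0.54 in atria. Its SAN call was lost after quantile normalization (-0.82). LAMB4, which the same filter leaves out, fell by 1.73 in SAN and had -0.85 in atria. LAMC1, the common gamma chain, rose by 1.28 in atria and had 0.94 in SAN, and its atrial call was lost after quantile normalization (0.95). Its atrial CN03 libraries, at 8.40 to 9.07, overlapped those at t0, at 7.72 to 8.68. LAMA1, LAMA5, LAMB1 and LAMB2 were not called in either tissue.

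Of the matrix glycoproteins, TNC and FN1 rose and NID2 fell in both tissues, while VTN was called lower in SAN. TNC, tenascin-C, a glycoprotein of remodelling matrix, had log2 expression of 7.40, 7.02, 7.89 and 8.03 in SAN with CN03, against 5.14, 4.87, 3.99 and 2.94 with vehicle. In atria it stood at 7.55, 8.04, 7.99 and 8.13 with CN03, against 1.59, 1.92, 1.87 and 1.83 with vehicle. The CN03 libraries of both tissues covered much the same range, while the vehicle libraries of SAN were all above those of atria and spread more widely. The log2FC was 3.35 ± 0.31 in SAN (limma adjusted p = 1.44e-09) and 6.13 ± 0.31 in atria (limma adjusted p = 2.68e-14), where it was the largest of any member.

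FN1, fibronectin, averaged 11.81 ± 0.167 in SAN with CN03 and 9.62 ± 0.139 with vehicle, and 12.69 ± 0.327 in atria with CN03 and 10.17 ± 0.277 with vehicle (log2 expression, SD, n = 4 each). It rose by 2.18 in SAN and 2.52 in atria on the log2 scale. NID2, a nidogen, fell by 1.28 and 1.38, whereas NID1, its paralog, had log2FC values of -0.03 and -0.69. VTN, vitronectin, fell by 1.83 in SAN and had -0.88 in atria. TNR, a tenascin of neural tissue, had -0.19 and -0.14.

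Among the 6 cytoplasmic adaptors and kinases, changes mostly stayed under the fold limit. By limma, none was called in SAN, and in atria PXN, paxillin, was called higher with a log2FC of 1.07 (16.7% of the 6, against 13.8% of all genes). The PXN call was lost after quantile normalization (0.81). With no fold limit, 4 were higher and 1 lower in SAN and 5 higher and 1 lower in atria at a limma adjusted p under 0.05, and the same counts passed an unadjusted p under 0.05. The shares of all genes at these limits were not computed, so these counts cannot be set against them. Their median log2FC was 0.46 in SAN and 0.79 in atria. ILK, the integrin-linked kinase, had log2FC values of 0.86 in SAN and 0.89 in atria, with every CN03 library above every vehicle library. PTK2, which encodes FAK, had 0.44 and 0.79, and TLN2, talin 2, had -0.84 and -0.75.

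A list of 40 further genes of integrin signalling and adhesion, of which 34 were in the table, had 12 called higher and 2 lower with CN03 in SAN (35.3% and 5.88%, against 10.2% and 17.1% of all genes), and 14 higher and 1 lower in atria (41.2% and 2.94%, against 13.8% and 15.6% of all genes). Its median log2FC was 0.60 in SAN and 0.86 in atria. The actin crosslinker ACTN1 rose by 2.86 in SAN and 3.15 in atria. ENAH, an actin elongation factor, rose by 2.40 in SAN and 3.26 in atria, VCL (vinculin) by 1.99 and 2.26, and SDC4, a fibronectin co-receptor, by 1.55 and 2.85. PARVG, the parvin of blood cells, fell by 1.90 and 2.04, and KANK1 fell by 1.30 in SAN. These and the following values are log2FC of CN03 over vehicle from limma, with SAN before atria.

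Of 26 basement membrane and laminin partners in the table (27 listed), 3 were called higher and 9 lower in SAN (11.5% and 34.6%, against 10.2% and 17.1% of all genes). In atria, 4 were called higher and 7 lower (15.4% and 26.9%, against 13.8% and 15.6% of all genes). The shares of higher genes were close to those of all genes. Median log2FC was -0.71 in SAN and -0.53 in atria. NTN4, a laminin-binding netrin, rose by 3.57 and 3.97. The collagen IV chains COL4A1 and COL4A2 rose by 1.16 and 1.17 in SAN and by 1.55 and 1.5 in atria, and HSPG2 (perlecan) rose by 1.35 in atria. FREM1, a basement membrane adhesion protein, fell by 3.55 and 4.52, SGCA by 2.11 and 1.92, COL4A4 by 1.83 and 1.96, SGCD by 1.47 in SAN and FREM2 by 2.39 in atria. Of 14 fibronectin and tenascin partners in the table (16 listed), 6 were called higher and 2 lower in SAN (42.9% and 14.3%, against 10.2% and 17.1% of all genes). In atria, 7 were called higher and 1 lower (50% and 7.14%, against 13.8% and 15.6% of all genes). The medians were 0.70 and 0.88. The matricellular genes THBS1, CYR61, CCN2 and THBS2 rose by 4.64, 3.96, 3.65 and 2.28 in SAN and by 5.38, 5.0, 5.34 and 3.06 in atria. SPP1, osteopontin, fell by 3.22 and 4.03, and EDIL3 fell by 1.41 in SAN.

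The response to CN03 differed between the tissues for 21 of 44 members, tested as the CN03 effect in SAN minus that in atria at a limma adjusted p under 0.05 with no fold limit. The difference was negative for 20 members (45.5%, against 15.4% of all genes) and positive for 1, LAMA4 (2.27%, against 11.7% of all genes). The median difference was -0.45 over the members and -0.04 over all genes. Of these 20, 11 were called higher with CN03 in at least 1 tissue. They included 7 integrin subunits (ITGA2, ITGA6, ITGAV, ITGB1, ITGB3, ITGB6 and ITGB8). TNC differed most, by -2.78 ± 0.438 (SE, limma adjusted p = 6.23e-05), and its 4 SAN vehicle libraries lay above its 4 atrial vehicle libraries. ITGA2 differed by -1.87 ± 0.31 (limma adjusted p = 0.000108). After quantile normalization between libraries its difference was smaller, -1.07, and remained called. That normalization ended the calls of ITGAV (-0.36, limma adjusted p = 0.127), ITGB1 (-0.29, 0.0861), ITGB6 (-0.76, 0.244), ITGA1 (-0.57, 0.0541), LAMB1 (-0.40, 0.106) and PARVB (-0.47, 0.0623), so that 4 of the 7 integrin subunits kept theirs.

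A further 17 negative differences ranged from -1.62 in LAMA3 to -0.35 in PTK2. For LAMA3 and LAMA1 the log2FC had opposite signs, at -1.10 and -0.75 in SAN and 0.52 and 0.81 in atria. VTN and LAMB4 had negative log2FC in both tissues, at -1.83 and -1.73 in SAN and -0.88 and -0.85 in atria, with differences of -0.94 and -0.88. The calls of ITGB6, LAMB1, PARVB and PTK2 were not stable when the 16 libraries were left out in turn. ITGB6 lost its call in 8 of the 16 fits (without Atria CN03 replicates 2 or 3, Atria vehicle replicates 1 or 4, SAN CN03 replicate 1, or SAN vehicle replicates 1, 3 or 4), with limma adjusted p of 0.0506 to 0.0836. LAMB1 lost it in 9 (without Atria CN03 replicates 2 or 3, Atria vehicle replicates 1 or 4, SAN CN03 replicates 1, 3 or 4, or SAN vehicle replicates 2 or 3), with 0.0603 to 0.105. PARVB lost it without Atria CN03 replicate 1 or SAN vehicle replicates 3 or 4 (limma adjusted p of 0.0526 to 0.0553), and PTK2 without SAN CN03 replicate 2 or SAN vehicle replicate 4 (0.0515 and 0.0542). Median centring also ended the calls of LAMB1 (limma adjusted p = 0.0602) and PTK2 (0.0537). The LAMB1 call was lost as well without the variance trend (limma adjusted p = 0.0544) and in fits on the compared groups only (0.0588). ITGA11, ITGA8, ITGA9 and ITGA3 had differences of -0.14, 0.05, -0.02 and 0.05, none of them called.

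**Figure D3:**
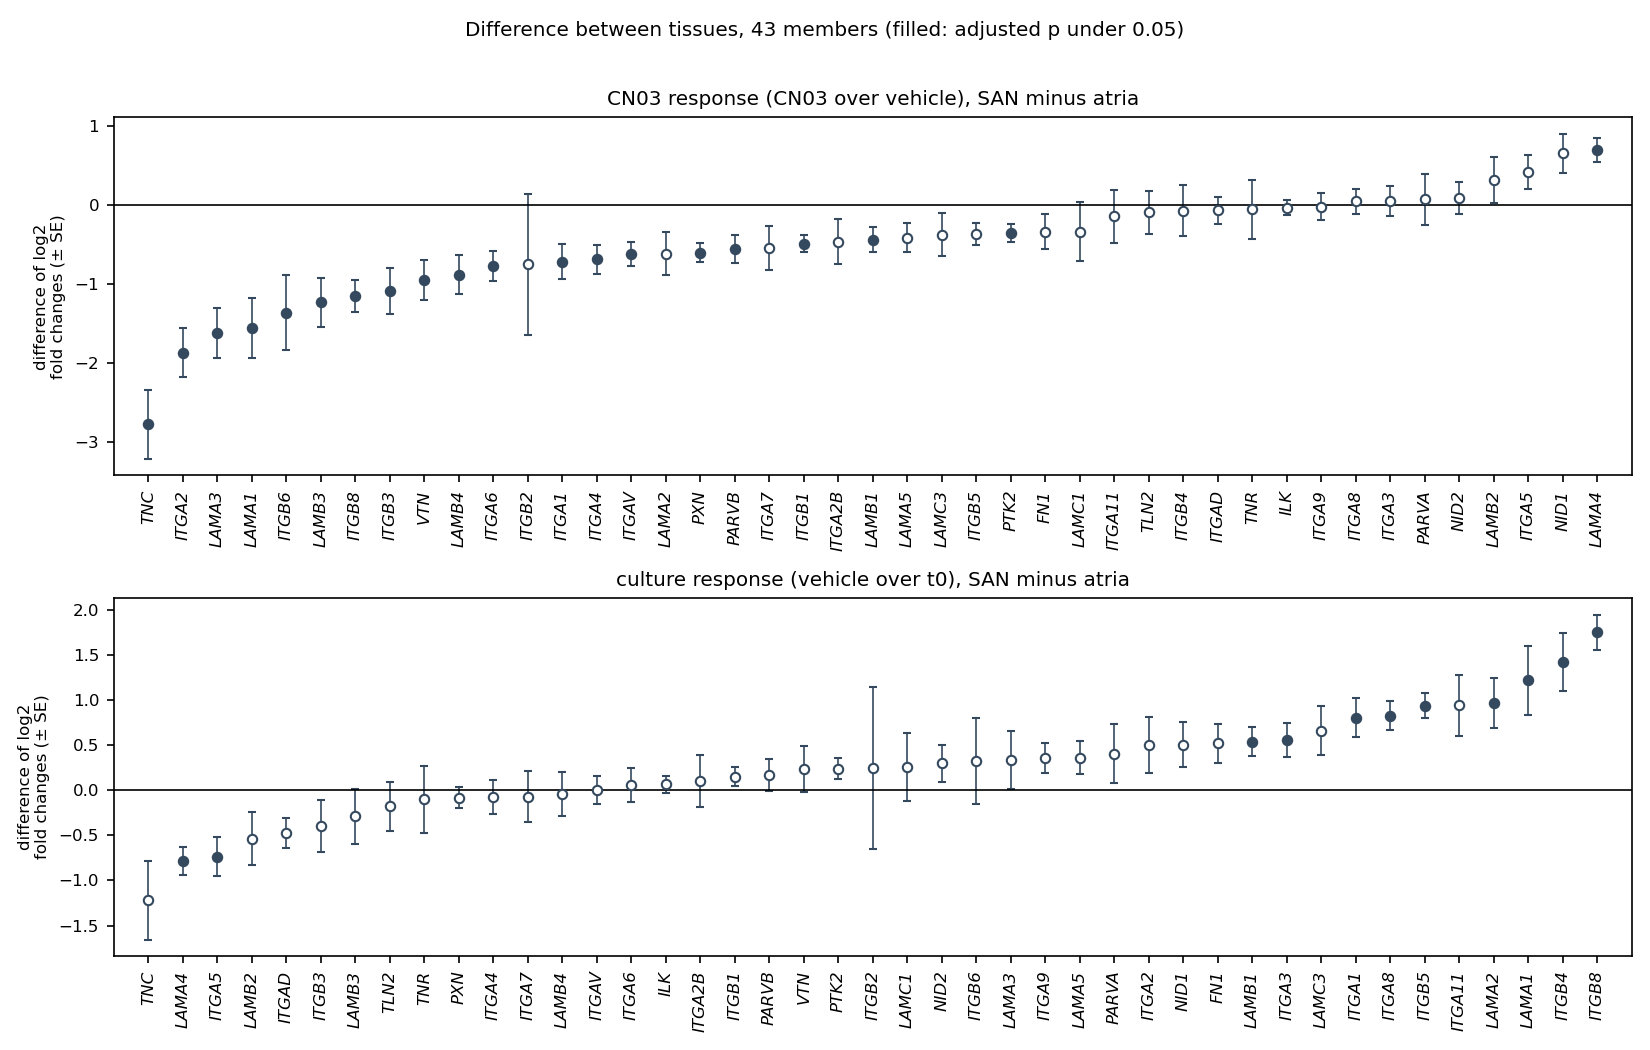
Difference between tissues (SAN minus atria) in the CN03 response (upper panel, CN03 over vehicle) and in the culture response (lower panel, vehicle over t0) for 43 members, each ordered by its value, with the standard error from limma. Filled points had an adjusted p under 0.05. They number 20 in the upper panel, of which 19 are negative, and 11 in the lower panel, of which 9 are positive.

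Culture with vehicle, compared with t0, changed far fewer members in SAN than in atria. In SAN, 1 of 44 members was called higher (2.27%, against 8.01% of all genes) and none lower (against 5.59% of all genes). By limma's unadjusted p under 0.05 there were 12 lower and 6 higher, and the share of all genes at that limit was not computed. The median log2FC was -0.09 over the members and -0.02 over all genes.

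In atria, 2 members were called higher with vehicle than at t0 (4.55%, against 10.1% of all genes) and 8 lower (18.2%, against 9.02% of all genes). The median log2FC over the members was -0.48 and that over all genes 0.00. ITGB4, the partner of ITGA6 in hemidesmosomes, stood at 1.10, 0.62, 0.67 and 0.42 in atria with vehicle, against 3.17, 3.14, 2.00 and 2.85 at t0. The groups were separate, with a log2FC of -2.09 ± 0.228 (limma adjusted p = 4.35e-08). ITGB8 had 2.22, 2.49, 2.21 and 2.56 with vehicle and 4.06, 4.48, 3.87 and 4.30 at t0. Its log2FC was -1.81 ± 0.14 (limma adjusted p = 1.81e-10), and the atrial CN03 libraries, at 4.00, 4.38, 4.31 and 4.27, overlapped those at t0.

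LAMA1, the alpha chain of early embryonic basement membranes, had 2.22, 2.01, 1.85 and 0.92 in atria with vehicle, against 3.35, 3.66, 3.29 and 3.46 at t0, a log2FC of -1.69 ± 0.27 (limma adjusted p = 1.06e-05). ITGA11 had 3.86, 4.99, 4.98 and 4.30 with vehicle and 5.51, 6.43, 5.57 and 5.62 at t0, a log2FC of -1.25 ± 0.24 (limma adjusted p = 0.000103). In ITGA11, vehicle libraries were below t0 and the CN03 libraries lower still, so the order of the 3 atrial groups was CN03, vehicle and t0 from low to high without overlap. ITGB5, ITGA9, LAMA3 and NID1 were also called lower, with log2FC between -1.08 and -1.01. Of these, the calls of ITGA9 (-0.98 without Atria t0 replicate 1), LAMA3 (-0.91 without Atria t0 replicate 2 and -0.86 without Atria vehicle replicate 1) and NID1 (-0.86 without Atria t0 replicate 2, -0.995 without Atria t0 replicate 3, -0.95 without Atria vehicle replicate 1 and -0.88 without Atria vehicle replicate 4) were lost when the library named was left out. With a pseudocount of 1 the calls of LAMA3 (-0.93) and NID1 (at the fold limit) were lost too, and after median centring that of NID1 (-0.99).

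The 2 members called higher were LAMB2 and ITGA5. LAMB2, a beta chain of mature basement membranes, stood at 6.11, 6.27, 6.50 and 6.23 in atria with vehicle, against 5.63, 4.33, 5.29 and 4.76 at t0, with a log2FC of 1.28 ± 0.205 (limma adjusted p = 1.16e-05). ITGA5 had 6.55, 6.42, 6.42 and 6.25 with vehicle and 5.85, 4.97, 5.45 and 5.09 at t0, with a log2FC of 1.07 ± 0.152 (limma adjusted p = 2.27e-06). Both had separate groups. Without Atria t0 replicate 2 or replicate 4 the log2FC of ITGA5 was 0.95 or 0.99, under the fold limit. Comparisons with t0 and with CN03 share the vehicle libraries, and so are not independent of each other.

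Marker sums also differed between vehicle and t0. In atria, the ranges did not overlap for endothelial and endocardial markers (8.33 to 8.73 with vehicle against 9.35 to 9.73 at t0), epicardial and mesothelial markers (9.16 to 9.67 against 9.90 to 10.61), thrombocyte markers (4.43 to 4.57 against 5.31 to 5.71), erythroid markers (7.28 to 10.03 against 10.57 to 11.90) and neural markers (7.31 to 7.81 against 8.41 to 8.48), all lower with vehicle. Sums of SAN markers (6.94 to 7.30 against 8.14 to 8.93) and atrial markers (10.45 to 10.74 against 10.86 to 11.40) were lower in cultured atria as well. Their genes moved apart. TBX18 and NPPA had lower means with vehicle (6.67 against 8.38 and 9.32 against 10.50). TBX3 (4.36 against 3.67), SHOX2 (2.35 against 1.29), ISL1 (1.89 against 1.63) and NKX2-5 (8.78 against 7.18) had higher ones. Cardiomyocyte, fibroblast and leukocyte sums overlapped. In SAN, endothelial (8.98 to 9.13 with vehicle against 9.34 to 9.98 at t0) and epicardial sums (9.58 to 9.95 against 10.27 to 10.72) were lower with vehicle, and leukocyte (6.92 to 7.15 against 6.01 to 6.26) and fibroblast sums (12.05 to 12.17 against 11.78 to 11.87) were higher. The leukocyte genes moved apart in SAN. MARCO (4.88 against 1.01), SPI1 (3.78 against 2.86), C1QA, C1QB and C1QC had higher means with vehicle. PTPRC (2.13 against 3) and CSF1R (4.00 against 4.40) had lower ones, and CD74 had 4.21 against 4.23. Within the epicardial sum, TCF21 had a higher mean with vehicle (8.30 against 7.64), as did MSLN. The part of these shifts in the culture changes of the members was not tested.

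Among partners, the adhesion list had 2 of 34 genes called higher and 0 lower with vehicle over t0 in SAN (5.88% higher, against 8.01% of all genes), and 4 higher and 1 lower in atria (11.8% and 2.94%, against 10.1% and 9.02% of all genes), shares of higher genes close to those of all genes. SDC4 (1.35) and VASP (1.24) rose in SAN, and PTK2B (1.61), CAV1 (1.07), VASP (1.05) and LIMS1 (1.02) rose in atria (log2FC). The basement membrane list had 1 higher and 4 lower of 26 in SAN (3.85% and 15.4%, against 8.01% and 5.59% of all genes), and 2 higher and 8 lower in atria (7.69% and 30.8%, against 10.1% and 9.02% of all genes). The collagen chains COL4A5, COL4A6 and COL18A1 fell by 1.01, 1.06 and 1.23 in SAN and by 1.60, 1.39 and 1.36 in atria, and FREM2 fell by 1.40 in SAN and COL4A2 by 1.4 in atria. SGCA, a sarcoglycan, rose by 1.20 and 1.92, and FREM1 by 1.08 in atria. The fibronectin and tenascin list had 2 higher and 4 lower of 14 in each tissue (14.3% and 28.6%). Over all genes the shares were 8.01% and 5.59% in SAN and 10.1% and 9.02% in atria. SPP1, a ligand of ITGA9 and of ITGAV receptors, rose by 5.17 in SAN and 6.74 in atria. CCN2 rose by 2.24 in SAN and LTBP1 by 1.09 in atria. THBS2, EDIL3 and FBN2 fell by 1.75, 1.24 and 1.13 in SAN and by 2.03, 2.63 and 1.30 in atria, whereas LTBP2 fell by 1.29 in SAN and VCAN by 1.92 in atria.

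**Figure D4:**
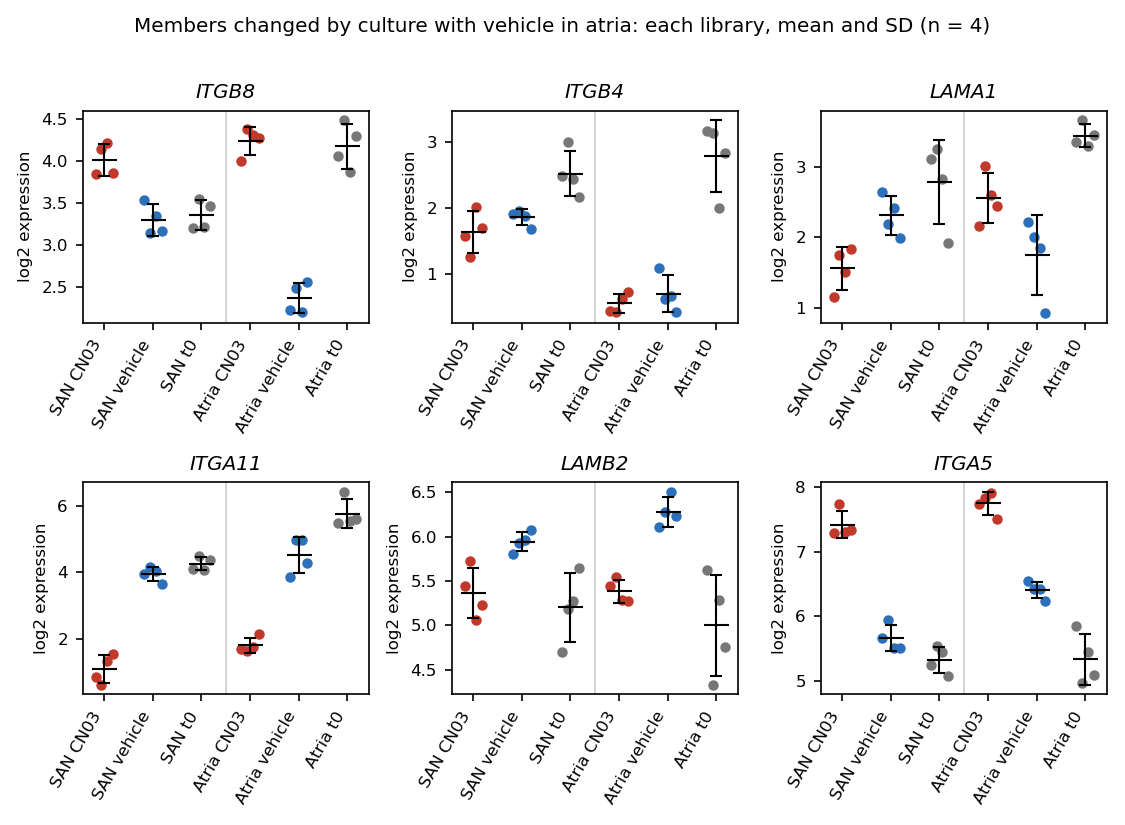
Log2 expression of the 6 members named for the comparison of vehicle with t0 in atria, in all 6 groups. Each point is 1 library (red CN03, blue vehicle, grey t0), with the mean and SD (n = 4). In atria, ITGB8, ITGB4, LAMA1 and ITGA11 are lower and LAMB2 and ITGA5 higher with vehicle than at t0, and in ITGB8 the atrial CN03 libraries reach the t0 range.

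The culture response itself differed between tissues for 11 of 44 members. The difference, SAN minus atria, was positive for 9 members (20.5%, against 6.89% of all genes) and negative for 2, ITGA5 and LAMA4 (4.55%, against 6.09% of all genes). ITGB8 differed by 1.75 ± 0.198 (SE, limma adjusted p = 2.82e-06), and its 4 SAN libraries had 3.54, 3.14, 3.34 and 3.16 with vehicle and 3.21, 3.55, 3.21 and 3.46 at t0, which overlapped. ITGB4 differed by 1.42 ± 0.322 (limma adjusted p = 0.0044), with SAN libraries at 1.92, 1.95, 1.88 and 1.68 with vehicle and 2.48, 3.00, 2.44 and 2.17 at t0. LAMA1 differed by 1.22 ± 0.382 (limma adjusted p = 0.0355), with SAN libraries at 2.64, 2.19, 2.42 and 1.99 with vehicle and 3.11, 3.26, 2.83 and 1.93 at t0. The LAMA1 difference was not stable. It kept an adjusted p under 0.05 in 14 of 23 alternatives, over which p ranged from 0.0189 to 0.0858, and it lost it without Atria t0 replicate 2 or 4, Atria vehicle replicate 4, SAN t0 replicate 3 or 4, or SAN vehicle replicate 1 or 3, where the difference was between 0.93 and 1.24, and also after quantile normalization or when limma was fitted to these groups alone. The call of ITGA3 (0.56) was lost in 11 of 16 fits that left out a library (without Atria t0 replicates 2 or 3, Atria vehicle replicates 1, 2 or 4, SAN t0 replicates 1, 3 or 4, or SAN vehicle replicates 1, 2 or 3), with limma adjusted p of 0.0539 to 0.12. That of ITGA5 (-0.74) was lost in 6 (without Atria t0 replicates 2 or 4, Atria vehicle replicate 1, SAN t0 replicates 2 or 3, or SAN vehicle replicate 3), with 0.0505 to 0.0606. That of LAMB1 (0.54) was lost without Atria t0 replicate 1, Atria vehicle replicates 1 or 4, or SAN t0 replicate 4, with 0.0503 to 0.0609, and also after quantile normalization (0.118). The ITGA3 call was lost as well with a mean log2 filter of 2 (limma adjusted p = 0.0504) and without the variance trend (0.0693).

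Fresh SAN and atria differed in 7 members. At t0, 5 of 44 were called higher in SAN than in atria (11.4%, against 6.86% of all genes) and 2 lower (4.55%, against 2.87% of all genes). TNC had 4.93, 4.15, 4.63 and 4.51 in SAN at t0, against 1.16, 0.86, 0.76 and 0.83 in atria, a log2FC of 3.65 ± 0.31 (limma adjusted p = 2.4e-09). ITGB3 had 4.97, 5.92, 5.44 and 5.17 in SAN, against 4.13, 3.66, 4.61 and 3.72 in atria, a log2FC of 1.35 ± 0.202 (limma adjusted p = 1.23e-05). LAMC3 had 4.49, 4.54, 4.79 and 4.61 in SAN, against 3.67, 3.09, 2.94 and 3.39 in atria, a log2FC of 1.33 ± 0.193 (limma adjusted p = 7.88e-06). In each of these 3 genes every SAN library was above every atrial library. VTN (1.24) and LAMA4 (1.01) were also called higher in SAN, the LAMA4 call being lost without SAN t0 replicate 2 (0.93), Atria t0 replicate 2 (0.93) or Atria t0 replicate 4 (0.99), and with a pseudocount of 1 (0.997).

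The members lower in SAN at t0 were ITGA11 and FN1. ITGA11 had 4.10, 4.5, 4.08 and 4.36 in SAN, against 5.51, 6.43, 5.57 and 5.62 in atria, a log2FC of -1.52 ± 0.24 (limma adjusted p = 2.3e-05). FN1 had 10.01, 9.97, 9.89 and 9.87 in SAN, against 11.40, 10.75, 10.95 and 10.92 in atria, a log2FC of -1.07 ± 0.155 (limma adjusted p = 7.79e-06). Neither gene had overlapping groups. The FN1 call was lost without Atria t0 replicate 1 (-0.94) and after quantile normalization (-0.78). Summed leukocyte markers at t0 were 6.01 to 6.26 in SAN and 5.12 to 5.64 in atria, and summed cardiomyocyte markers 12.41 to 13.03 in SAN and 13.63 to 14.17 in atria. Summed thrombocyte markers were 5.81 to 6.14 in SAN and 5.31 to 5.71 in atria, although TUBB1 among them had a lower mean in SAN (3.71 against 3.84). ITGA2B had a log2FC of 0.66 at t0, under the fold limit. The part of these marker shifts in the tissue differences was not tested.

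After culture with vehicle, 5 members were called higher in SAN than in atria (11.4%, against 7.66% of all genes) and none lower (against 3.36% of all genes). At limma's unadjusted p under 0.05, 22 were higher and 5 lower, a limit at which the share of all genes was not computed. The median log2FC was 0.35 over the members and 0.01 over all genes. The 5 called members were TNC (2.43), LAMC3 (1.99), VTN (1.48), LAMA2 (1.20) and ITGB4 (1.16). The ITGB4 call was lost after quantile normalization (0.77) and with a pseudocount of 1 (0.81). Without Atria vehicle replicate 3 the count was 8, with ITGB3, ITGB6 and TNR added. With CN03, 2 members were called higher in SAN (4.55%, against 3.84% of all genes), LAMC3 (1.61) and ITGB4 (1.09), and 5 lower (11.4%, against 4.07% of all genes). The lower ones included LAMB3 (-1.76), ITGA2 (-1.70), ITGA7 (-1.26) and LAMA3 (-1.09). The calls of ITGB4 (0.96 without SAN CN03 replicate 3) and LAMA3 (-0.95 without SAN CN03 replicate 2 and -0.89 without Atria CN03 replicate 3) were lost when those libraries were left out, and both with a pseudocount of 1 (0.74 and -0.91). The ITGB4 call was also lost after quantile normalization (0.95). At t0 the log2FC of LAMA3 and LAMB3 between the tissues were 0.20 and -0.24, neither called. LAMC3 was the only member called higher in SAN than in atria at t0, with vehicle and with CN03.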

How the data were processed

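Total RNA depleted of ribosomal RNA was sequenced with a stranded kit. The submitters' processing notes name FastQC, kallisto, edgeR, limma and the GRCg7b assembly. Versions, filter and normalization are not given in the sources used here. The authors deposited log2 expression values for 12422 gene symbols and 1 row without a symbol, which was left out (6.58% to 17.9% of a library's linear sum, highest in Atria CN03 replicate 2). Linear sums ranged from 860000 to 1280000 per library and differed between groups. In SAN they were 996300 to 1025000 with CN03 against 859700 to 940600 with vehicle. In atria they were 1202000 to 1282000 with CN03 against 967100 to 1036000 with vehicle. Read depth is unknown, so no counting error was computed.

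Group means were fitted to all 24 libraries (18 residual degrees of freedom) with limma 3.58.1 in R 4.3.3, using a variance trend and Benjamini-Hochberg adjusted p-values, after the script was tested on simulated data. Library values are given for up to 4 called members per direction with separate groups in each treatment or culture comparison, up to 3 per direction at t0, and the 3 largest called differences in response. Up to 4 partners per direction are named. Members, lists and this rule were chosen with earlier results of these data known. Of the genes examined, 1 member and 1 partner are not reported here one by one: counts and medians include them, and single values and figures do not. Marker genes were summed on the linear scale and the sums given as log2.

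The labels number the pools of each group 1 to 4. Deviations from group means over 10349 genes with a mean above 2 correlated with r over 0.1 in 21 of 28 same-numbered pairs (mean 0.184). All 4 pairs did so for CN03 against vehicle in atria (0.246 to 0.275) and for SAN against atria at t0 (0.112 to 0.496), and the replicate block changed no member's call in either. Alternatives were quantile normalization, median centring, a pseudocount of 1, a mean log2 filter of 2, no trend, fits on the compared groups only, a replicate block, no fold limit, and leaving out each library. Python 3.11.15 with matplotlib 3.10.9 drew the figures.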

Additional observations from a re-analysis of the deposited data

Results flagged for a closer look

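In 16 of 258 sets of 4 libraries (43 members in 6 groups), 1 library stood apart, its gap to the nearest library exceeding 0.829 of the group's range. Chance alone flags about 1 in 20 groups. In SAN with CN03 these were ITGA5 in replicate 2 (7.73 log2 units, others 7.29 to 7.34), ITGB2 in replicate 1 (-4.97, others -1.71 to -1.06), ITGB5 in replicate 3 (5.73) and NID1 in replicate 3 (6.97). In SAN with vehicle ITGB1 in replicate 4 stood at 9.09. At t0 in SAN they were LAMA3 in replicate 1 (3.38) and LAMA5 in replicate 2 (9.58). In atria with CN03 they were ITGA6 in replicate 4 (8.45, others 8.95 to 9.03), LAMA3 in replicate 3 (3.46, others 2.63 to 2.68), LAMB3 in replicate 3 (6.68, others 5.71 to 5.87) and LAMC1 in replicate 4 (8.40). In atria with vehicle they were ITGA9 in replicate 1 (4.17), ITGB1 in replicate 2 (9.05) and ITGB2 in replicate 1 (0.13, others 0.89 to 1.00). At t0 in atria they were ITGA11 in replicate 2 (6.43, others 5.51 to 5.62) and ITGAD in replicate 3 (3.42).

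The CN03 effect differed between the tissues, by limma's test of the difference (SAN minus atria, log2), in TNC (-2.78), ITGA2 (-1.87), LAMA3 (-1.62), LAMA1 (-1.56), ITGB6 (-1.36), LAMB3 (-1.23), ITGB8 (-1.15), ITGB3 (-1.09), VTN (-0.94), LAMB4 (-0.88), ITGA6 (-0.77), ITGA1 (-0.71), ITGA4 (-0.69), ITGAV (-0.62), PXN (-0.60), PARVB (-0.55), ITGB1 (-0.49), LAMB1 (-0.44), PTK2 (-0.35) and LAMA4 (0.70).

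By the same test, the effect of culture with vehicle over t0 differed in ITGB8 (1.75), ITGB4 (1.42), LAMA1 (1.22), LAMA2 (0.97), ITGB5 (0.94), ITGA8 (0.82), ITGA1 (0.80), ITGA3 (0.56), LAMB1 (0.54), ITGA5 (-0.74) and LAMA4 (-0.78).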

How the results depend on the processing

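With no fold change limit, the members called numbered 37 for CN03 in SAN, 39 for CN03 in atria, 15 for vehicle against t0 in SAN, 32 for vehicle against t0 in atria, 22 for SAN against atria at t0, 22 with vehicle and 24 with CN03, since this setting drops a criterion. The shares of all genes at this setting were not computed, so these counts cannot be set against them. For vehicle against t0 in SAN the count was 2 after quantile normalization and 0 with a pseudocount of 1 (cause not tested), and 1 to 2 when single libraries were left out. The count for SAN against atria with vehicle was 5 to 8 when single libraries were left out. The leave-one-out ranges were 22 to 24 for CN03 in SAN, 23 to 24 for CN03 in atria, 8 to 12 for vehicle against t0 in atria, 6 to 8 at t0, 6 to 10 with CN03, 19 to 22 for the difference in CN03 response and 8 to 12 for the difference in culture response. After quantile normalization the CN03 counts were 20 in SAN and 21 in atria, and 16 for the difference in CN03 response. With the replicate block, the same members were called as without it in every comparison (23 for CN03 in SAN, 23 in atria, and 7 at t0, for example), except that the difference in CN03 response had 24, the 21 members plus ITGB5, LAMA5 and NID1. Of 511 alternative values for the 30 named results, 498 kept their direction and call, 13 kept their direction and lost the call, and 0 reversed. The 511 include the setting with no fold limit, which could not lose a call. The 30 results were named as the largest called changes, so these totals do not describe the other members. The mean log2 filter of 2 leaves out 5 members (ITGB2, ITGB4, ITGB6, LAMB4 and TNR), for which it gives no value.

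Depth is unknown and each group has 4 pools. Values near the table minimum, such as those of ITGB2 with CN03, depend on the scale used. Whether equal replicate numbers mark pools of the same dissection is stated nowhere in the sources used here.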
